A study of Rattus norvegicus with 8 samples.

Results

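The transcripts described here encode the serum- and glucocorticoid-regulated kinases Sgk1, Sgk2 and Sgk3, the ubiquitin ligases Nedd4 and Nedd4l, and the N-myc downstream regulated proteins Ndrg1, Ndrg2, Ndrg3 and Ndrg4, in rat thymocytes cultured with or without dexamethasone (Dex). Members were found by the gene name that the array gives each probe, with Nedd4 also listed as Nedd4a and Ndrg3 as LOC296318, names that the RefSeq table joins to them. This gave 13 probes for all 9 genes, 8 by the array's own name and 5 through RefSeq, of 41012 probes and 16545 named genes in all. The set was chosen on earlier values of these arrays, among them the lower Sgk1 signal in Dex, so the members' values in Dex against Control are a description and carry no test.

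Thymi came from adrenalectomized male Sprague-Dawley rats, which lack their own adrenal glucocorticoids, and 3 thymi were pooled for a preparation. Suspended cells were then kept for 6 h either untreated (Control, 4 arrays) or with 100 nM Dex, a synthetic glucocorticoid that kills thymocytes by apoptosis (Dex, 4 arrays). The labels number the arrays as replicates and do not say which came from separate cultures, while the design text counts 3 biological replicates, so p-values measure the spread between these arrays, which may be partly technical. The ages of the rats are not given in the sources used here.

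SGK kinases belong to the AGC family, as do the AKT kinases, and are switched on by growth factor signals through mTOR complex 2 and PDK1 (Pdpk1). Unlike most kinases of that family, SGK1 is controlled strongly through transcription, and its gene was named for induction by serum and glucocorticoids. A known target is NEDD4L, which ubiquitinates ion channels such as the epithelial sodium channel. Once phosphorylated by SGK1, NEDD4L is held by 14-3-3 proteins and leaves the channel at the cell surface. NDRG1 is phosphorylated by SGK1 as well, and its phosphorylated form is widely used as a readout of SGK activity. The arrays measure transcripts only, not kinase activity or phosphorylation.

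Sequence near the Sgk1 start is shown first, since Sgk1 carried the largest difference among the members that were detected. RefSeq lists 3 Sgk1 starts on GRCr8, and the windows of 250 bases before 2 of them hold a TATAAA box. The window at chr1:24804832-24805081 (minus strand) is printed here, with the box in capitals at position -33, counted from -1 at the last base before the start. The other, at chr1:24807232-24807481, holds it at position -55. TATAAA is held on the gene's strand by 8.06% of the 33469 windows of that length in the table.

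Sgk1 upstream window: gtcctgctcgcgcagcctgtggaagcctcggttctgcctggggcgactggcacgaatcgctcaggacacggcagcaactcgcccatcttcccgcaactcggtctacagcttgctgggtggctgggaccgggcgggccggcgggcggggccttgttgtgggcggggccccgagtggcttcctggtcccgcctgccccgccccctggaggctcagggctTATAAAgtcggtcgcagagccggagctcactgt

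The core of a glucocorticoid receptor site, TGTTCT read on either strand (AGAACA on the other), is in 17.5% of all windows, and the full palindrome (AGAACA, 3 free bases, TGTTCT) is in 0.012%. None of the 3 Sgk1 windows holds the core. Of 11 windows that the table has for 6 of the 9 member genes, 1 holds it, before 1 of the 3 Ndrg4 starts (window chr19:9380295-9380544 on GRCr8, minus strand), and no member window holds the palindrome. The stretch around that match is shown because Ndrg4 was the other member whose groups did not overlap, with the core in capitals at position -51.

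Ndrg4 stretch: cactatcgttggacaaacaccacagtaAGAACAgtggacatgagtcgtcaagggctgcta

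These matches describe letters in short windows and say nothing about binding of the receptor. Sgk2, Sgk3 and Ndrg1 have no entry in the table. Of the array probes, those of Sgk2 and Nedd4 are given because Sgk2 was the only member with no measured level and Nedd4 is one of the genes read by probes that differed in sign. The Sgk2 probe joins bases that lie 2392 bases apart from first to last on rn3 (chr3:153788366-153790757, plus strand), so it crosses an intron. Nedd4 probe 2 lies at chr8:77337939-77337998 of rn3 (plus strand) and can be read without a stop codon in 1 frame.

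Sgk2 probe: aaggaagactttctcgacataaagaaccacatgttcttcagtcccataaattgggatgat
Nedd4 probe 2: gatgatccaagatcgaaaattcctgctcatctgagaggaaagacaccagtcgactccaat

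Of the 13 member probes, 12 were well above background on all 8 arrays, and the Sgk2 probe was on none. Values below are log2 signals after quantile normalization. Signals of different probes are not comparable with each other, so each probe is set only against itself.

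Of the arrays, Control 1, Dex 1 and Dex 2 had the fewest probes above background (28666, 26474 and 24911), against 33150 to 34476 on the rest. Hybridization slide and treatment were nearly the same split. Slide 1 held Control 2, 3 and 4, slide 2 held Dex 1, 2 and 4, and slide 3 held Control 1 and Dex 3, which is the one comparison within a slide. All 12 thymocyte markers, among them Cd3e, Cd4, Cd8a and Rag1, were above background on every array, as the tissue label implies. The mean level of 11 of them with no missing value was 12.72 to 12.88 in Control and 12.27 to 12.68 in Dex. The mean level of 9 stromal markers was 5.75 to 5.92 in Control and 6.14 to 6.48 in Dex. Of these 9, 5 were above background on all arrays and Dcn was on none, so the mean includes signals near background. Col1a2 differed the most among those above background on every array of a group, and it was lower in Dex (-0.76 ± 0.43). Macrophage markers averaged 7.03 to 7.24 and 6.86 to 7.46, B cell markers 4.35 to 5.07 and 4.2 to 5.34, and erythroid markers 5.59 to 7.13 and 5.71 to 7.45. By limma 0 genes of these 5 lists passed an adjusted p of 0.05, where 0.778% of all probes did. An unadjusted limma p under 0.05 was found for 10.6% of all probes. It was found for 4 of 12 thymocyte markers (1 higher and 3 lower), 1 of 8 macrophage and 1 of 9 stromal markers. The methods' statistic called 3 thymocyte and 1 stromal marker, against 6.79% of all probes.

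Sgk1, the kinase that gives the family its name, was lower in Dex. Its probe (rn3 chr1:23504663-23504722, minus strand) read 11.70, 11.52, 12.37 and 12.19 in Control 1 to 4 and 10.91, 10.57, 10.53 and 10.50 in Dex 1 to 4. Every Dex array lay below every Control array, and the Control arrays were the more spread, with replicates 3 and 4 high. The means were 11.94 ± 0.40 and 10.63 ± 0.19 (SD, n = 4 each), a difference of -1.32 ± 0.23 (SE of the limma fit), or a Dex level 0.402 times that of Control. Same-numbered arrays differed by -0.79, -0.95, -1.84 and -1.69, and on their shared slide Dex 3 minus Control 1 was -1.17. Before scaling between arrays, the signal was 3470 to 5440 in Control and 891 to 2730 in Dex, also without overlap. In cultures of whole thymus, fewer cells of a type and less RNA per cell cannot be told apart, here and for every value that follows.

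**Figure D1:**
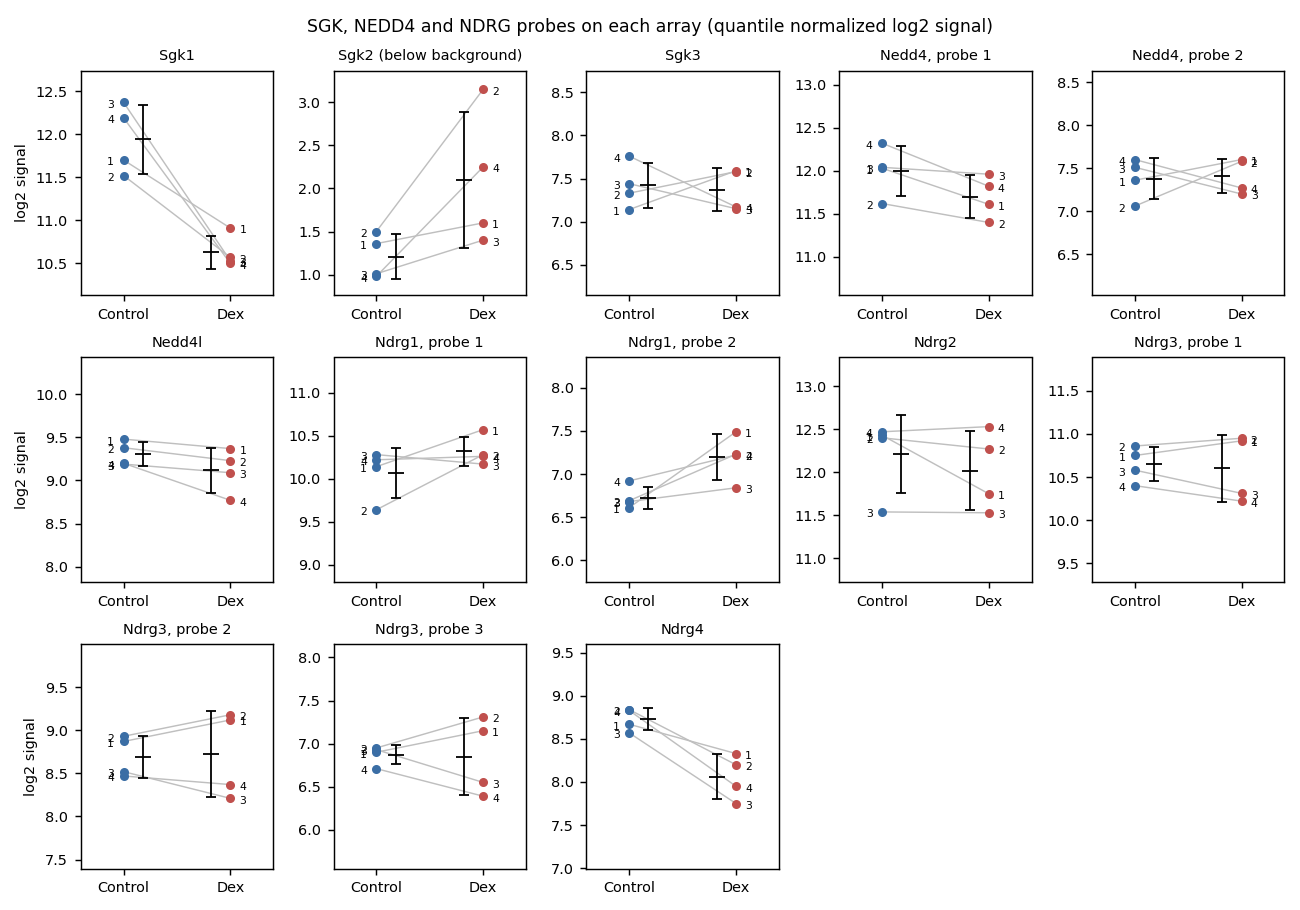
Quantile normalized log2 signal of each of the 13 member probes on the 4 Control (blue) and 4 Dex (red) arrays. Points carry their replicate number, grey lines join equal numbers, and black bars are mean ± SD; every panel spans the same number of log2 units around its own middle. Control and Dex points are apart only for Sgk1 and Ndrg4.

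The other kinases of the family showed no such gap. Sgk3, which is anchored to endosomes by a phosphoinositide-binding domain, read 7.14, 7.33, 7.44 and 7.76 in Control and 7.59, 7.58, 7.15 and 7.17 in Dex. Its groups overlapped fully, with Dex 1 and 2 high and Dex 3 and 4 low, and the difference was -0.05 ± 0.20. Sgk2, a kinase known mostly from liver, kidney and pancreas, read 1.36, 1.5, 1.01 and 0.98 in Control and 1.60, 3.15, 1.4 and 2.25 in Dex. All of these lie below the background criterion, so the Sgk2 probe gives no level or direction for either group. Its computed difference of 0.89 ± 0.38 became 0.02 ± 0.06 when background was corrected by another method (normexp).

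The 2 NEDD4 ligases differed between the groups by amounts close to their spread. Nedd4, the founding HECT ligase of its family, has 2 probes. Probe 1 (rn3 chr8:77355701-77355760, plus strand) read 12.03, 11.62, 12.04 and 12.32 in Control and 11.61, 11.40, 11.96 and 11.82 in Dex. It was lower in Dex in 4 of 4 pairs, but its groups overlapped and the difference was -0.30 ± 0.21. Probe 2, shown above, read 7.36, 7.06, 7.51 and 7.60 in Control and 7.60, 7.58, 7.20 and 7.27 in Dex. It gave 0.03 ± 0.18, with Dex higher in pairs 1 and 2 and lower in pairs 3 and 4, so the probes disagreed in sign and neither left the spread of the arrays. Nedd4l, the ligase that SGK1 is best known to phosphorylate, read 9.48, 9.38, 9.19 and 9.20 in Control and 9.37, 9.23, 9.09 and 8.77 in Dex. It was lower in 4 of 4 pairs with overlapping groups, at -0.20 ± 0.18.

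Among the NDRG transcripts Ndrg4 stood apart. Ndrg4, known mainly from brain and heart, read 8.67, 8.84, 8.57 and 8.83 in Control and 8.33, 8.20, 7.75 and 7.95 in Dex (rn3 chr19:9812906-9812965, minus strand). Every Dex array was below every Control array, and Dex 3 and 4 were the lowest. The means were 8.73 ± 0.13 and 8.06 ± 0.26 (SD, n = 4 each), a difference of -0.67 ± 0.18, or 0.629 times the Control level. Pairs differed by -0.34, -0.64, -0.82 and -0.88, and the arrays on the shared slide by -0.92. Before scaling, the ranges were 335 to 544 in Control and 175 to 375 in Dex and overlapped, so the separation of Ndrg4 rests on the scaling between arrays.

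Ndrg1, the SGK substrate used as a readout of kinase activity, had a higher mean in Dex on both of its probes. Probe 1 read 10.14, 9.64, 10.28 and 10.22 in Control and 10.57, 10.28, 10.17 and 10.26 in Dex, a difference of 0.25 ± 0.19. Probe 2, which crosses an intron (820 bases from first to last on rn3), read 6.61, 6.69, 6.68 and 6.92 in Control and 7.49, 7.23, 6.84 and 7.22 in Dex, a difference of 0.47 ± 0.18. Dex was higher in 3 of 4 pairs by probe 1 and in 4 of 4 by probe 2, but Control and Dex arrays overlapped on both, on probe 2 only because Dex 3 lay below Control 4.

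Ndrg2, a relative of Ndrg1, followed the replicate number more than the treatment. It read 12.43, 12.40, 11.54 and 12.47 in Control and 11.75, 12.27, 11.53 and 12.53 in Dex, with a difference of -0.19 ± 0.30. Replicate 3 was the lowest array of both groups. Among erythroid markers, Hbb (7.11 in Control 3 and 6.83 in Dex 3) and Alas2 (6.78 and 7.05) were also lowest there in both groups, and Epb4.2 was not. The stromal markers did not follow one pattern, as the keratin Krt18 was lowest (11.31 and 11.58) and the collagen Col1a2 highest (9.25 and 8.77) in replicate 3 of both groups. The part that other cells played in the Ndrg2 values was not tested.

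Ndrg3, the remaining family member, has 3 probes that moved together. Its probe 1 read 10.75, 10.86, 10.58 and 10.40 in Control and 10.92, 10.95, 10.31 and 10.22 in Dex, and the differences of probes 1, 2 and 3 were -0.05 ± 0.23, 0.03 ± 0.27 and -0.02 ± 0.24. On all 3, Dex 1 and 2 lay above Control 1 and 2 while Dex 3 and 4 lay below Control 3 and 4. Dex 1 and Dex 2 were also the arrays with the fewest probes above background, and the part of this in the Ndrg3 values was not tested. RefSeq lists pseudogenes of Ndrg3 and of Sgk1, whose share of these signals was not tested. A further probe that the array describes as similar to Ndrg3 (TC519958, no member) gave 0.46 ± 0.29, and another (XM_230786) was above background on 1 array of each group.

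**Figure D2:**
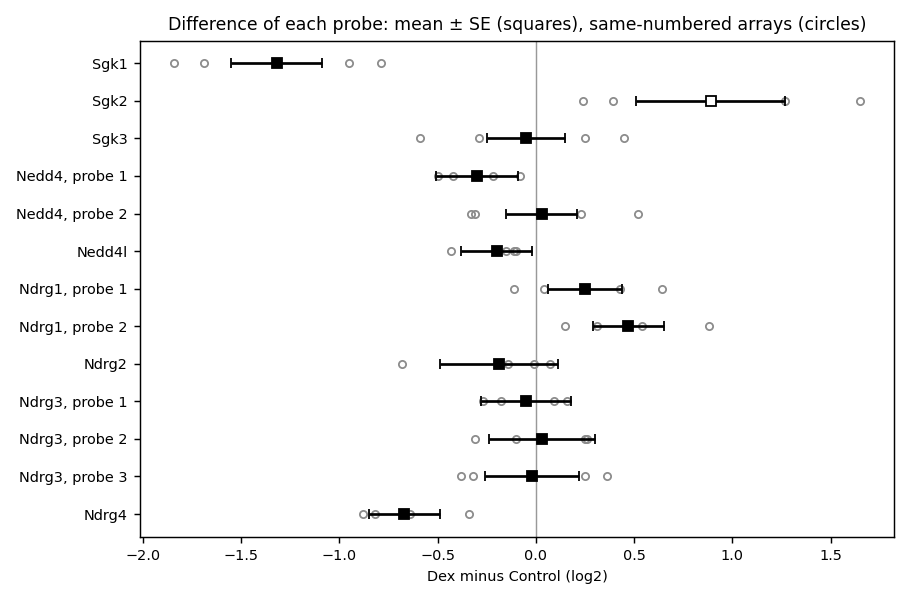
Dex minus Control (log2) of each member probe. Squares and bars are the difference ± SE of the limma fit over all 8 arrays (open for Sgk2, which was above background on no array) and circles are the differences of same-numbered arrays. Sgk1 at -1.32 and Ndrg4 at -0.67 lie farthest below 0, and Ndrg1 probe 2 at 0.47 is the highest of the detected probes.

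Of the 12 detected probes, 8 had a lower and 4 a higher mean in Dex. By limma 0 of 13 passed an adjusted p of 0.05, where 0.778% of all 41012 probes did. In the fit with replicate number as a block, 0 of 13 passed and 0.198% of all. At an unadjusted limma p under 0.05 there were 4 of 13 (Sgk1, Sgk2, Ndrg1 probe 2 and Ndrg4) against 10.6% of all probes. The methods' signal to noise measure called 2 of 13 (Sgk1 and Ndrg4) against 6.79% of all, and groups did not overlap for the same 2 against 9.11% of all. The counts include the contrast by which the set was picked, and nothing is read from them. Whether Sgk1 is past the limma threshold depended on the setting, although its value changed little. It was called with dim probes left out, with normexp background correction, with slide as a random block and without Dex 1 and Dex 2. It was also called with a block that sets replicates 1 and 2 apart from 3 and 4. The differences in these fits were from -1.43 to -1.26. Since the set was picked on this contrast of Sgk1, these calls are no test of it and nothing is read from them.

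**Figure D3:**
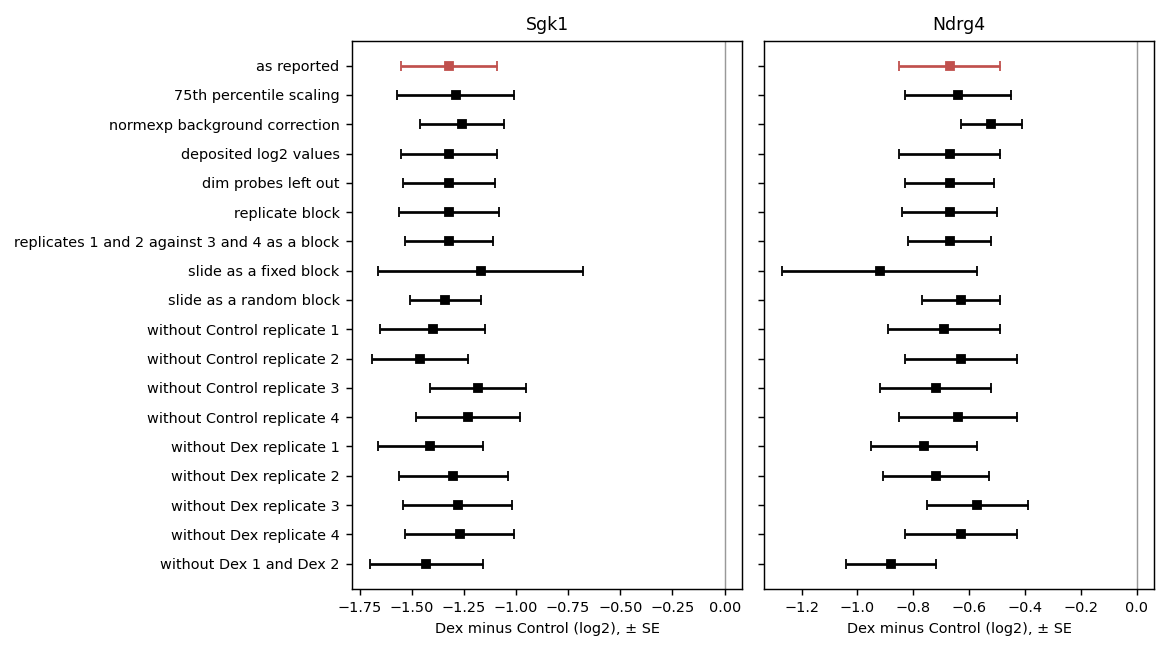
Dex minus Control (log2, ± SE) of Sgk1 and Ndrg4 as reported (red) and under each alternative processing, block or left-out array (black). Sgk1 stays between -1.46 and -1.17 and Ndrg4 between -0.92 and -0.52, all below 0.

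The test was also read for genes that act on or beside the SGK kinases. Of 72 such genes in 6 lists, Tsc22d3 and Usp2 rose and 0 fell, a share of 2.78%. By the same rule 0.737% of all 16545 named genes rose and 0.278% fell (limma, adjusted p of 0.05, brightest probe of each gene). The lists were chosen with earlier results of these data known, and nothing is read from the share. For the counts that follow, 10.6% of all probes had an unadjusted limma p under 0.05, and the methods' statistic called 6.79%.

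Of 9 upstream kinases and mTOR complex genes, 0 passed, 3 had an unadjusted p under 0.05, and the methods' statistic called 2. Their median difference was -0.08, against 0.00841 over all named genes, each by its brightest probe. Among those above background on every array of a group, Wnk1, a kinase known to activate SGK1, differed the most at 0.66 ± 0.19 (7.72 ± 0.19 in Control and 8.38 ± 0.29 in Dex, adjusted p = 0.248). Deptor, an mTOR-binding inhibitor above background on 3 arrays of each group, gave 0.71 ± 0.24 (adjusted p = 0.313). Pdpk1, the activating kinase, gave -0.42 ± 0.14 (adjusted p = 0.305), with no overlap of the groups and lower values in 4 of 4 pairs, and it was called by the methods' statistic, as was Wnk1.

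Of 9 genes that set the stability of the SGK1 protein, 1 rose and 0 fell, with a median of 0.00943. Tsc22d3, which encodes the glucocorticoid-induced leucine zipper known to shield SGK1 from degradation, read 11.09, 10.80, 11.30 and 11.26 in Control and 14.41, 14.84, 14.84 and 14.74 in Dex. It rose by 3.59 ± 0.18 (limma adjusted p = 0.000153, higher in 4 of 4 pairs). The ligases Stub1 (0.05 ± 0.14) and Syvn1 (-0.18 ± 0.16), which mark SGK1 for degradation, and the chaperone Hsp90ab1 (0.01 ± 0.13) did not pass.

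Of 17 relatives, adaptors and partners of the NEDD4 ligases, 1 rose and 0 fell, with a median of -0.113, while 4 had an unadjusted p under 0.05 and the methods' statistic called 4 (Usp2, Smurf1, Ndfip2 and Arrdc1). Usp2, a deubiquitinase known to remove ubiquitin that NEDD4L places on the sodium channel, read 6.98, 6.97, 6.65 and 7.0 in Control and 8.57, 8.72, 8.35 and 8.69 in Dex. It rose by 1.68 ± 0.16 (limma adjusted p = 0.00413), and the adjusted p was 0.0416 with replicate as a block. The adaptors Ndfip1 and Ndfip2, which recruit NEDD4 ligases and are each printed on 10 spots, gave -0.06 ± 0.16 and -0.32 ± 0.14, and for Ndfip2 the groups did not overlap and Dex was lower in 4 of 4 pairs. Their 10 spots varied by an SD of 0.0181 to 0.0921 and 0.0307 to 0.083 within an array. The 14-3-3 gene Ywhaz gave -0.63 ± 0.21 (adjusted p = 0.327).

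Of 11 other SGK substrates 0 passed, with 1 at an unadjusted p under 0.05 and 2 by the methods' statistic. Mdm2, the ligase of p53, differed the most among those with a level on all arrays of a group, at -0.47 ± 0.15 (adjusted p = 0.295). The transcription factor Foxo1 gave 0.43 ± 0.63, with Dex arrays spread by an SD of 1.28. Of 17 channels and transporters under SGK and NEDD4L, 0 passed, 4 had an unadjusted p under 0.05 and the methods' statistic called 4. Kcna3, the main voltage-gated potassium channel of T cells, read 5.21, 5.41, 5.32 and 5.45 in Control and 6.66, 6.97, 5.97 and 7.32 in Dex. Its groups did not overlap, and the difference of 1.38 ± 0.28 missed the threshold (limma adjusted p = 0.087). Kcnj1 and Slc12a3, channel and transporter of the kidney tubule, were above background on no array, while Scnn1a, the pore subunit of the sodium channel, gave 0.27 ± 0.16. Of 9 related AGC kinases 0 passed, with 2 at an unadjusted p under 0.05 and 2 by the methods' statistic. Akt1, a kinase of growth factor signaling, gave -0.40 ± 0.14 (adjusted p = 0.33).

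Beside these, 10 genes that glucocorticoids are known to induce were read, a list also chosen with earlier results of these data known. By limma (adjusted p of 0.05, brightest probe), 0.737% of all named genes rose and 0.278% fell. Of the 10, 7 rose and 0 fell, with a median of 1.64. They are Tsc22d3, the mTOR inhibitor Ddit4 (3.73 ± 0.19), the phosphatase Dusp1 (3.05 ± 0.21), the transcription factor Klf9 (1.98 ± 0.18), the receptor co-chaperone Fkbp5 (1.73 ± 0.13), Errfi1 (1.56 ± 0.18) and Nfkbia (1.41 ± 0.15), with limma adjusted p from 0.000153 to 0.00851. Sgk1, whose name records the same induction in other cells, had the opposite sign in these cultures. With replicate as a block, Nfkbia (adjusted p = 0.0673) and Errfi1 (adjusted p = 0.103) no longer passed. With each array scaled to its 75th percentile in place of quantile normalization, Fkbp5 (adjusted p = 0.0533), Klf9 (0.0657), Errfi1 (0.096) and Nfkbia (0.1) did not pass. When slide was a fixed block, so that the treatment was compared through Control 1 and Dex 3 alone, 0 of the 81 genes in all lists passed. In that fit the differences of the 8 genes called without it were 1.37 to 3.75 with wider errors, such as 3.75 ± 0.41 for Tsc22d3 and 1.37 ± 0.33 for Usp2, while Wnk1 went to 0.12 ± 0.35 and Kcna3 to 0.76 ± 0.40.

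**Figure D4:**
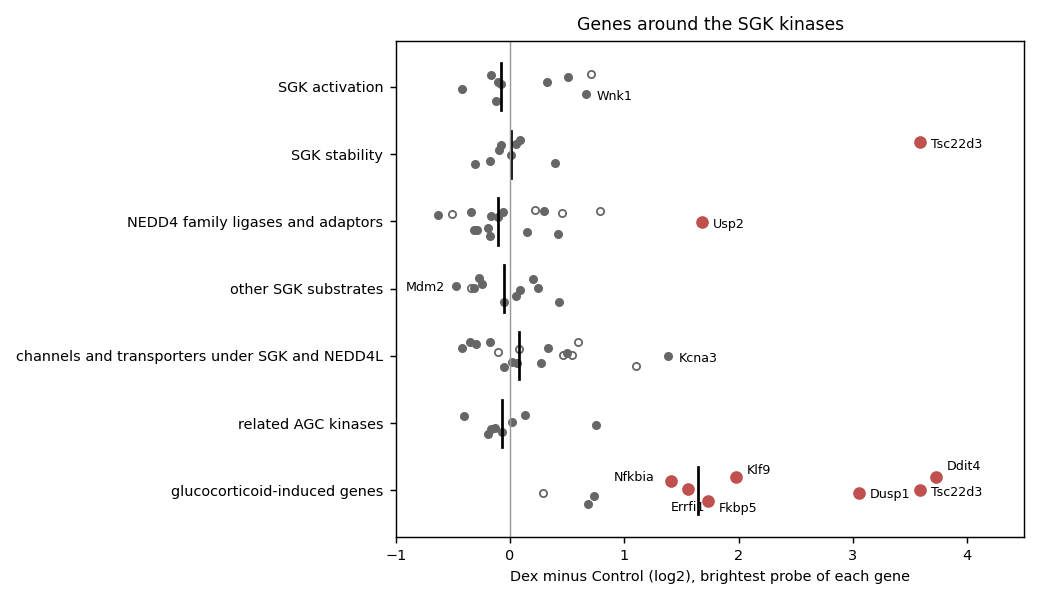
Dex minus Control (log2) of the brightest probe of the genes in 7 lists around the SGK kinases, without 1 gene that is not reported here. Red points passed limma's adjusted p of 0.05, grey points did not, open points were not above background on all arrays of either group, and vertical bars are list medians. Tsc22d3 (in 2 lists), Usp2 and 6 more of the glucocorticoid-induced genes lie to the right.

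Over the 8 arrays, the values most like those of Sgk1 among 10974 genes above background everywhere were those of Chd1 (Pearson r = 0.989), a chromatin remodeler, Gnb1 (0.989), a G protein subunit, Cdc42se1 (0.985), Trappc6b (0.979) and Zeb1 (0.974), a transcription factor. The 8 points share the treatment split and the same 8 arrays, so the coefficients describe likeness and carry no test. All 5 were lower in every Dex array than in every Control array, by -0.62 to -0.32, less than Sgk1. After each group's mean was taken out, r was 0.935, 0.93, 0.915, 0.876 and 0.819, which the choice by r over the same arrays favors. Control 3 and 4 were the highest arrays for all 5, as for Sgk1, while Zeb1 had Control 1 below Control 2 where Sgk1 had it above.

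**Figure D5:**
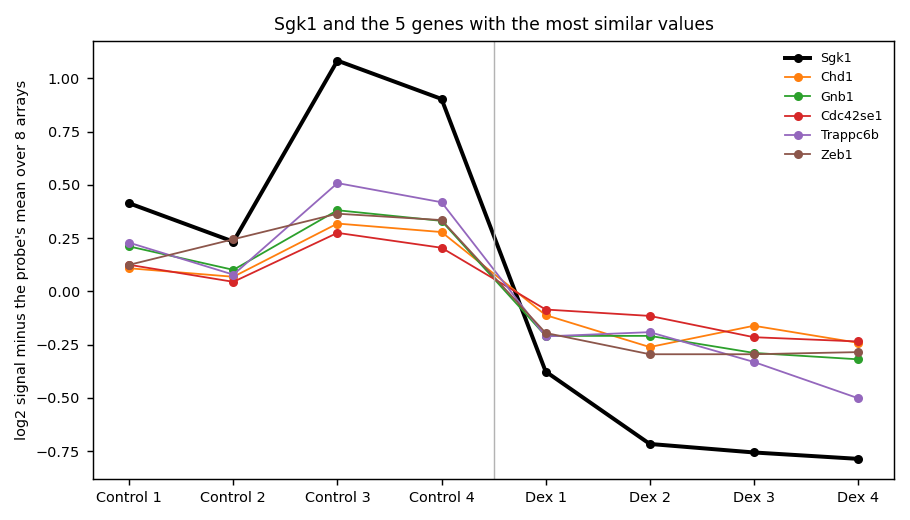
Log2 signal of Sgk1 (black) and of the 5 genes with the highest Pearson r to it, each minus its own mean over the 8 arrays. Control arrays are left of the line and Dex arrays right of it; all 6 genes fall below 0 in Dex, Sgk1 with the widest range.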

How the data were processed

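Total RNA of 8 thymocyte samples was labeled with Cy3 and hybridized to 1-color Agilent whole rat genome arrays. The authors extracted spots with Agilent Feature Extraction 9.5.3.1, and the deposited intensity values are its background-subtracted processed signals, not scaled between arrays, with flags (scored 0 or 1) for spots well above background, saturated or outlying. The authors also deposited log2 values, quantile normalized and summarized by median polish. Here the same steps were recomputed from the intensities after control and outlier spots were left out (16 missing values), and the results correlated with the deposited values at 0.999999 or more. Probe positions are those of rn3 that the file headers give.

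limma 3.58.1 (R 4.3.3) was fitted over all 41012 probes, two-sided, with Benjamini-Hochberg adjustment at 0.05. The scripts were tested on simulated data. For the methods' signal to noise statistic, the null distribution was pooled over all probes and all 70 assignments of the arrays. The one-tailed nominal threshold was 0.01 and the minimum fold 1.2. The study permuted samples and probes, so its distribution may differ from this one. Deviations of same-numbered arrays from their group means correlated at 0.397, 0.129, 0.55 and 0.184, and the numbers were therefore treated as pairs, although the labels do not say what they share. Some arrays of unlike number correlated as closely: 0.401 for Control 1 and Dex 2, 0.188 for Control 2 and Dex 1, and 0.392 for Control 3 and Dex 4. A block that sets replicates 1 and 2 apart from 3 and 4 was among the alternatives.

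Members and gene lists were chosen with earlier results of these data known. Genes named are all members, in each list the called genes and the one of largest difference, and the 5 most like Sgk1. Other genes of the lists (Stub1, Syvn1, Hsp90ab1, Ndfip1, Ndfip2, Smurf1, Arrdc1, Ywhaz, Foxo1, Deptor, Pdpk1, Scnn1a and Akt1) and the markers Hbb, Alas2, Epb4.2, Krt18 and Col1a2 were named after their values were seen. Sequences are those of the scanner files (probes) and of RefSeq's GRCr8 table (upstream windows). The number of arrays limits precision, and no spot was saturated. Rictor, Itch and Rps6kb2 of the lists were not found by name, and 2 listed genes are counted but not reported here.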

Additional observations from a re-analysis of the deposited data

Results flagged for a closer look

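In 70 groups of 4 arrays tested with Dixon's criterion, 4 held an array far from the other three, where chance gives about 1 in 20. Ndrg2 read 11.54 in Control 3 against 12.40 to 12.47 in the other Control arrays. Usp2 read 6.65 in Control 3 against 6.97 to 7.0. Mdm2 read 10.23 in Control 4 against 10.02 to 10.04. Zeb1 read 11.68 in Dex 1 against 11.58 to 11.59 in the other Dex arrays.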

How the results depend on the processing

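The count of probes past the threshold moved widely, from 319 (231 higher and 88 lower) to 166 with 75th percentile scaling (133 and 33), 916 with normexp (499 and 417), 562 with dim probes left out, 81 with replicate as a block (75 and 6), 670 with a block that sets replicates 1 and 2 apart from 3 and 4, 1 with slide as a fixed block, 1838 with slide as a random block (1116 and 722), 7143 without Dex 1 and Dex 2 (3226 and 3917, so that most were lower), 2784 by the methods' statistic, and 96 to 249 when 1 array was left out. Leaving out any array other than Dex 3 moved it by over 1.5 times, to 127, 113, 117 and 96 without Control 1, 2, 3 and 4 and to 134, 170 and 161 without Dex 1, 2 and 4. Listed genes called, 8 as reported, were 4 with 75th percentile scaling, 13 with normexp, 0 with slide as a fixed block, 15 without Dex 1 and Dex 2, 22 by the methods' statistic, and 7 to 9 with 1 array left out. Member probes called, 0 as reported and 0 to 0 with 1 array left out, were 1 with normexp, with dim probes left out and with the block that sets replicates 1 and 2 apart from 3 and 4 (Sgk1 each time), and 2 with slide as a random block, without Dex 1 and Dex 2 and by the methods' statistic (Sgk1 and Ndrg4 each time). Nothing is read from the member calls, since they include the contrast by which the set was picked. The replicate block changed no call among the members and 2 among the listed genes (6 called). The cause of these shifts was not tested.

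The differences of Sgk1, Nedd4, Nedd4l, Ndrg1, Ndrg2 and Ndrg4, each by its probe 1, kept their sign under every alternative, but not all kept their size. With 1 array left out, Ndrg2 ranged from -0.41 (without Control 3) to -0.03 (without Dex 3), and it was -0.12 without Control 1 or Control 2, -0.1 without Control 4 or Dex 1 and -0.36 without Dex 4. Ndrg1 was 0.11 without Control 2, Nedd4l -0.08 without Dex 4, and Nedd4 -0.2 without Control 4 or Dex 2, while Sgk1 and Ndrg4 moved by less than 1.5 times. Sgk3 changed sign under 4 and Ndrg3 under 5, staying within -0.26 to 0.07 and -0.44 to 0.08. With slide as a fixed block, Sgk2 was 0.04, Ndrg2 -0.89, Ndrg3 -0.44, Nedd4 -0.06, Ndrg1 0.04 and Nedd4l -0.39. That fit could not be made for 8 probes. The correlation within slides in the random fit was -0.235. Of the limma alternatives, Wnk1 passed under 1, Mdm2 under 1 and Kcna3 under 3, and the methods' statistic called each of these genes as well. Treatment and slide cannot be told apart beyond the pair on slide 3, 4 arrays a group limit the precision, and Sgk2 is limited by signal at background.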
